A study of Mus musculus with 15 samples.

Results

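The proteins of the box C/D and H/ACA small nucleolar ribonucleoproteins (snoRNPs) were followed at the RNA level in mouse T-ALL (acute lymphoblastic leukemia of T cells) after the MYC transgene was switched off. The set is defined by gene symbol with no threshold on a measured value, but it was chosen with earlier results of these data known, and it holds 10 of the 53380 features in the count tables. They are the box C/D core Fbl, Nop56, Nop58 and Snu13, the H/ACA core Dkc1, Nop10, Nhp2 and Gar1, and the assembly and trafficking proteins Naf1 and Nolc1. The cells were derived from tumors of EμSRα-tTA/tet-O-MYC mice on the FVB/N background. The paper's methods describe these cells as grown in culture, with doxycycline added to the medium. In these cells the tetracycline transactivator tTA, under the EμSRα promoter and enhancer that drive it in lymphoid cells, keeps a human MYC transgene on, and doxycycline turns it off. All groups carry both transgenes. The 0 h group was mock treated (MYC on), the others were given doxycycline for 2, 4, 8 or 24 h, and each of the 5 groups has 3 libraries of polyA RNA, 15 in all. The sources used here do not say how many tumors or clones the sequenced cells stand for, nor that the 3 libraries of a time came from separate cultures. The p-values therefore measure only the spread between these libraries, which may be technical.

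Most chemical marks on ribosomal RNA are placed by snoRNPs, in which a short guide RNA pairs with the target and a fixed set of proteins does the work. Box C/D particles methylate the ribose through fibrillarin (Fbl), held by Nop56, Nop58 and the RNA-binding protein Snu13, which is also part of the spliceosome. H/ACA particles turn uridine into pseudouridine through dyskerin (Dkc1), with Nop10, Nhp2 and Gar1 around it. Naf1 holds the place of Gar1 while an H/ACA particle is built, and Nolc1 (Nopp140) binds both kinds of particle and moves with them between Cajal bodies and the nucleolus. The H/ACA proteins also sit on telomerase RNA. MYC is known as a broad activator of ribosome production, including nucleolar protein genes.

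Several host genes of guide RNAs are themselves snoRNP protein genes, and the guides lie in the introns from which such RNAs are cut. GENCODE M21 placed 5 snoRNAs within Nop56, 4 within Nop58 and 1 within Dkc1 (GRCm38). The 4 shown here are those in which a search found the letters of the boxes that name the 2 classes. Capitals mark a C box (searched as ATGATGA or GTGATGA) and a D box (CTGA) in the first 3, and the ACA near the 3′ end in the last. Snord110 lies at chr2:130275506-130275573 and Gm24451 at chr2:130276237-130276369 on the + strand within Nop56. Gm26287 lies at chr1:59704258-59704338 and Snord11 at chr1:59704790-59704873 on the + strand within Nop58. The first 3 lie in introns only, whereas Gm24451 also overlaps an exon of an annotated Nop56 transcript.
Snord110: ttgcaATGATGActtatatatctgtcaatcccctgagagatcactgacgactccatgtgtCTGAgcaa
Gm26287: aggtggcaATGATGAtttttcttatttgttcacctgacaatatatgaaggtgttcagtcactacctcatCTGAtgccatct
Snord11: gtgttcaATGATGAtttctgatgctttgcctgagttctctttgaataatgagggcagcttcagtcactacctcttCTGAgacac
Gm24451: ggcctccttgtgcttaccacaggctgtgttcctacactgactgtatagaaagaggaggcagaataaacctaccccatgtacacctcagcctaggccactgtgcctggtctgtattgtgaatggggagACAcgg
The guide RNAs themselves were not measurable in these libraries, which were made from polyA RNA. Over all 15 libraries Gm26287 had 67 counts, Snord70 (also within Nop58) 23, Snord11 13 and Snord110 4, and the other 6 had 0. Of those 6, all but Gm25520 (within Dkc1) overlap an exon of their host on the same strand. Whether the counting left out reads shared with the host was not tested. A count of 0 allows up to 3 counts for counting error only.

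The start sites were searched for 2 MYC/MAX binding words, the E-box CACGTG and its variant CACGCG, on both strands of the window from 250 bases before to 50 bases after each RefSeq start (GRCm38.p6). Of the 10 genes, 8 had a window (Fbl and Naf1 had none). CACGTG was in 0 of 8, and in 8.09% of the 27025 genes with a window. CACGCG was in 3 of 8, and in 10.5% of all genes. The 3 stretches are printed because those genes differ widely in their course below. Capitals mark CACGCG or its reverse complement CGCGTG, and the first base of the word lies 25 bases before the start in Nolc1, at base 4 after it in Nhp2 and at base 25 after it in Nop10. The stretches are chr19:46075782-46075846, chr11:51619764-51619793 and chr2:112261938-112261967, all on the + strand.
Nolc1: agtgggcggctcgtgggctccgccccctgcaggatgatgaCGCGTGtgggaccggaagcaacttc
Nhp2: ggaggcggcggcCGCGTGgttcctctatgc
Nop10: aggttgttggcgCACGCGattgaagcggcg
A match describes letters and not binding, and no match says only that these letters are not in this window.

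Total counts per library lay between 25852711 and 27102318 (median 26672358), so each gene of the set was read with at least 364 counts in every library. Levels are given as CPM, the counts of a gene relative to its library's total, on totals scaled by the trimmed mean of M values (TMM). They are shares of a library, and less of an RNA per cell and fewer cells that hold it cannot be told apart in bulk RNA. The MYC transgene had 2079, 2017 and 1975 CPM at 0 h, 24.0, 27.1 and 23.4 CPM after 2 h and 3.40, 2.94 and 3.54 CPM after 24 h of doxycycline, so that the labels fit the design at every time. Replicate 3 at 24 h stood apart from its group. Its counts differed from those of the other 24 h libraries by a chi-square per degree of freedom of 77.7 and 85.4, where the other pairs of replicates gave 2.81 to 16.5, and its share of ribosomal protein counts was 3.51%, below the 5.48% and 5.82% of replicates 1 and 2. The 24 h fold changes of the 10 genes are therefore also given without it. All 11 T lineage markers had counts in every library, although Trbc1 had only 0.111 to 1.48 CPM. The sum of the 11 went from between 6599 and 6649 CPM at 0 h to between 15184 and 16150 CPM at 24 h (on library totals). B lineage markers summed to at most 0.425 CPM and erythroid markers to at most 0.0750 CPM in any library, while 5 myeloid markers summed to 8.70 to 36.9 CPM and Pecam1 with Col1a1 to 51.3 to 160.4 CPM, both highest at 24 h. Most of the myeloid rise was Itgam, at 2.14 to 2.58 CPM at 0 h and 21.6 to 25.5 CPM at 24 h. Lyz2 had 0 counts in every library, and Csf1r was at 6.28 to 8.38 CPM at 0 h and 5.26 to 8.39 CPM at 24 h. Nearly all of the last sum was Pecam1, as Col1a1 reached at most 0.116 CPM.

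All 10 snoRNP protein genes were lower at 8 h and at 24 h than at 0 h (edgeR quasi-likelihood test, Benjamini-Hochberg adjusted p under 0.01 over the 14485 genes tested), against 25.1% and 28.1% of all genes tested. At 2 h, 6 were lower (8.59% of all genes) and at 4 h 9 were lower (19.9%), with Nop10 the exception. None was higher than at 0 h at any time by edgeR, by DESeq2 or at an unadjusted p under 0.05 (0 of 10 each), since every fitted fold change was below 0. Of the 14485 genes tested, 956, 2629, 3665 and 4443 were higher at 2, 4, 8 and 24 h (edgeR, adjusted p under 0.01). The median log2 fold change of the 10 at 2, 4, 8 and 24 h was -0.46, -1.42, -2.18 and -2.25, where that of all genes tested was 0.01, 0.08, 0.09 and 0.07. In each of these comparisons the libraries of the later time all lay below those at 0 h for all 10 genes, the uncalled ones at 2 h and 4 h included. The share of all genes tested whose libraries lay apart in this way was not counted. Without replicate 3 at 24 h, which also enters the estimate of the spread, the counts at 2, 4, 8 and 24 h were 9, 10, 10 and 10. The calls over all genes moved too, with 774 to 2167 lower at 2 h when each library was left out (1244 with all).

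**Figure D1:**
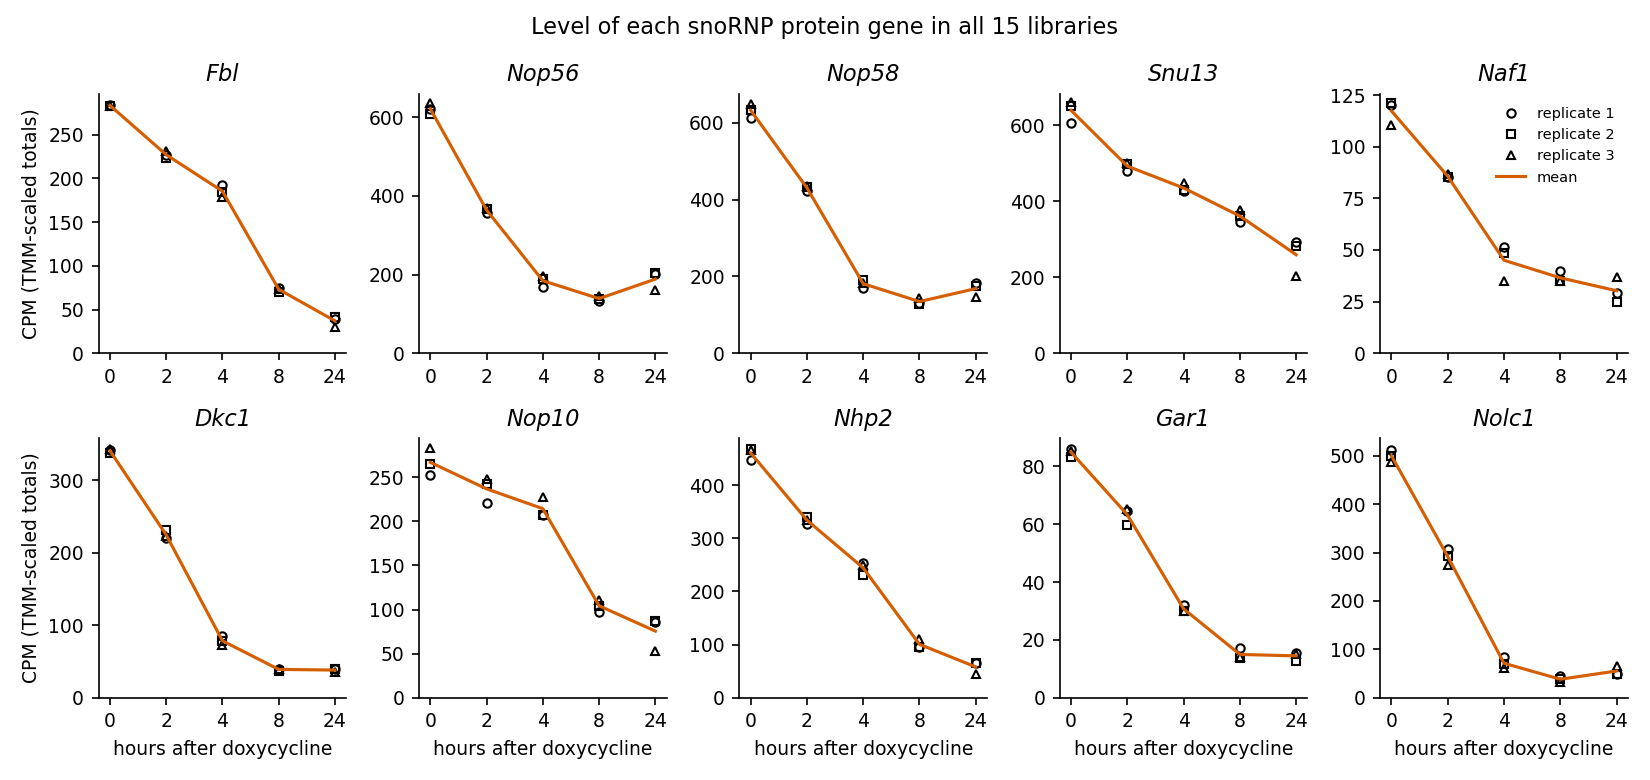
Level of each gene in CPM on TMM-scaled totals (vertical axes from 0) against hours after doxycycline (times evenly spaced), with 1 symbol per replicate and a line through the means. The largest step of Dkc1 and Nolc1 lies between 2 and 4 h, and that of Fbl, Nop10 and Nhp2 between 4 and 8 h. The 24 h libraries of Nop56, Nop58 and Nolc1 lie above those at 8 h.

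The box C/D genes did not fall together. Nop56 and Nop58, the paired scaffold proteins, had lost most of their RNA by 4 h, while Fbl, the methyltransferase they carry, still stood at 65.4% ± 2.33 (SD, n = 3) of its 0 h mean and then went on falling. Fbl (chr7:28169710-28179269, + strand) had 284, 283 and 283 CPM at 0 h, 227, 223 and 231 CPM after 2 h and 192, 184 and 179 CPM after 4 h. It had 74.6, 70.5 and 74.0 CPM at 8 h and 39.2, 41.5 and 30.3 CPM at 24 h. Each time lay wholly below the one before, with the lowest value in replicate 3 at 24 h. The log2 fold change against 0 h was -0.32 ± 0.08 (SE) at 2 h (adjusted p = 0.0113, edgeR, just outside the threshold), -0.61 ± 0.08 (SE) at 4 h (adjusted p = 2.11e-05), -1.96 at 8 h and -2.94 ± 0.09 (SE) at 24 h (-2.81 without replicate 3 at 24 h).

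Nop56 (chr2:130274430-130279313, + strand) had 622, 608 and 635 CPM at 0 h, 355, 367 and 370.1 CPM after 2 h and 169, 188 and 196 CPM after 4 h. It had 133, 137 and 147 CPM at 8 h and 202, 204 and 160.0 CPM at 24 h. The low point was 8 h, and all 3 libraries at 24 h lay above it while overlapping those at 4 h. The log2 fold change against 0 h was -0.77 ± 0.09 (SE) at 2 h, -1.75 ± 0.09 (SE) at 4 h, -2.16 at 8 h and -1.72 ± 0.09 (SE) at 24 h, with adjusted p from 1.15e-11 to 9.52e-06 (edgeR), and -1.62 at 24 h without replicate 3. Nop58 (chr1:59684971-59719044, + strand) ran from 613 to 650.3 CPM at 0 h through 423 to 435 CPM (2 h), 170.1 to 190.0 CPM (4 h) and 129 to 143 CPM (8 h) to 147 to 183 CPM at 24 h. Its log2 fold changes of -0.56, -1.81, -2.23 and -1.91 (-1.82 without replicate 3 at 24 h) lay close to those of Nop56 at each time.

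Snu13, the protein that box C/D particles share with the spliceosome, changed least of the 10 at 8 h and at 24 h. Its locus is chr15:82040525-82047598 on the − strand. Its level ran from 607 to 661 CPM at 0 h through 479 to 499.9 CPM (2 h), 428 to 448 CPM (4 h) and 346 to 377 CPM (8 h) to 202 to 294 CPM at 24 h. No 2 neighbouring times overlapped, yet only the last step passed the test between neighbours. Against 0 h the log2 fold change was -0.38 at 2 h (adjusted p = 0.0136, edgeR, not past the threshold), -0.56 at 4 h, -0.82 at 8 h and -1.30 ± 0.10 (SE) at 24 h (-1.15 without replicate 3 at 24 h). At 24 h it stood at 40.6% ± 7.77 of its 0 h mean, where the other 9 genes stood at 11.1% to 30.3%.

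Of the H/ACA core, Dkc1, the pseudouridine synthase, had the largest fitted fall against 0 h at each time, and Nop10, the small protein bound next to its catalytic domain, was the last to pass the test. By 24 h the means of Dkc1 and Nhp2 were close, at 11.2% ± 0.851 and 12.6% ± 2.67 (SD, n = 3) of their 0 h means. Without replicate 3 at 24 h, however, the log2 ratio of Dkc1 to Nhp2 had changed by -0.27 from 0 h. Dkc1 (chrX:75095854-75109777, + strand) had 341, 338 and 343 CPM at 0 h, 220.2, 231 and 223 CPM after 2 h and 84.7, 77.8 and 73.4 CPM after 4 h. It had 39.8, 37.4 and 40.4 CPM at 8 h and 39.9, 40.05 and 34.9 CPM at 24 h. The groups did not overlap up to 8 h, whereas at 24 h they overlapped those at 8 h. The log2 fold change was -0.60 ± 0.07 (SE) at 2 h, -2.12 ± 0.07 (SE) at 4 h, -3.12 ± 0.07 (SE) at 8 h and -3.15 ± 0.07 (SE) at 24 h (adjusted p from 3.27e-14 to 1.04e-05, edgeR), with -3.09 at 24 h without replicate 3.

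Nop10 (chr2:112261926-112263269, + strand) had 253, 265 and 283 CPM at 0 h, 220.4, 242 and 247 CPM after 2 h and 208, 207 and 228 CPM after 4 h. It had 97.5, 104 and 111 CPM at 8 h and 86.4, 86.9 and 53.3 CPM at 24 h. The 4 h libraries overlapped those at 2 h, and the 8 h libraries lay far below both. The log2 fold change of -0.17 ± 0.13 (SE) at 2 h (adjusted p = 0.4, edgeR) and of -0.32 ± 0.13 (SE) at 4 h (adjusted p = 0.0597) did not pass the test. It passed at 8 h (-1.36 ± 0.14 (SE)) and at 24 h (-1.82 ± 0.14 (SE), and -1.62 without replicate 3 at 24 h). The 4 h value passed without that replicate (adjusted p = 8.18e-05, edgeR), at the same log2 fold change of -0.32.

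Nhp2 (chr11:51619735-51623714, + strand), an RNA-binding core protein related to Snu13, ran from 447 to 467 CPM at 0 h through 326 to 341 CPM (2 h), 230.3 to 253 CPM (4 h) and 95.0 to 109.9 CPM (8 h) to 43.9 to 65.3 CPM at 24 h. All 5 times were apart, and the widest log2 step was that from 4 to 8 h. Its log2 fold change was -0.46 ± 0.11 (SE) at 2 h (adjusted p = 0.00656, edgeR, up to 0.0322 over the alternatives), -0.91 at 4 h, -2.20 at 8 h and -2.98 at 24 h (-2.82 without replicate 3 at 24 h). Gar1 (chr3:129824912-129831396, − strand), which joins the finished particle, ran from 83.1 to 86.1 CPM at 0 h through 59.9 to 65.4 CPM (2 h), 30.0 to 32.2 CPM (4 h) and 13.7 to 17.2 CPM (8 h) to 12.9 to 15.5 CPM at 24 h. It halted after 8 h as Dkc1 did, with overlapping groups thereafter. Against 0 h it stood, in log2, at -0.42, -1.46, -2.50 and -2.55 (-2.58 without replicate 3 at 24 h), all past the test.

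Nolc1 and Naf1 act before or around the mature particle. Nolc1 (chr19:46075863-46085530, + strand) had the largest fitted fall of the 10 at 4 and 8 h, and one close to that of Dkc1 at 24 h. It had 512, 500.2 and 487 CPM at 0 h, 307, 293 and 275 CPM after 2 h and 83.5, 69.1 and 61.6 CPM after 4 h. It had 44.3, 38.4 and 32.6 CPM at 8 h and 49.9, 49.6 and 66.5 CPM at 24 h, with replicate 3 the highest of the last group. The 8 h libraries were the lowest and did not overlap those at 24 h. The log2 fold change was -0.78 ± 0.13 (SE) at 2 h, -2.81 ± 0.14 (SE) at 4 h, -3.70 ± 0.14 (SE) at 8 h and -3.17 ± 0.14 (SE) at 24 h (adjusted p from 5.25e-12 to 0.000327, edgeR), or -3.33 at 24 h without replicate 3.

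Naf1 (chr8:66860217-66890564, + strand) had 120.3, 121 and 111 CPM at 0 h, 85.1 to 86.7 CPM after 2 h and 51.2, 48.7 and 35.2 CPM at 4 h. It had 34.8 to 39.6 CPM at 8 h and 29.1, 24.9 and 36.9 CPM at 24 h. From 4 h on neighbouring groups overlapped, and most of its fall was complete by 4 h. The log2 fold change was -0.45 ± 0.13 (SE) at 2 h (adjusted p = 0.0196, edgeR, not past the threshold), -1.38 ± 0.14 (SE) at 4 h, -1.68 at 8 h and -1.95 ± 0.14 (SE) at 24 h (-2.12 without replicate 3 at 24 h).

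**Figure D2:**
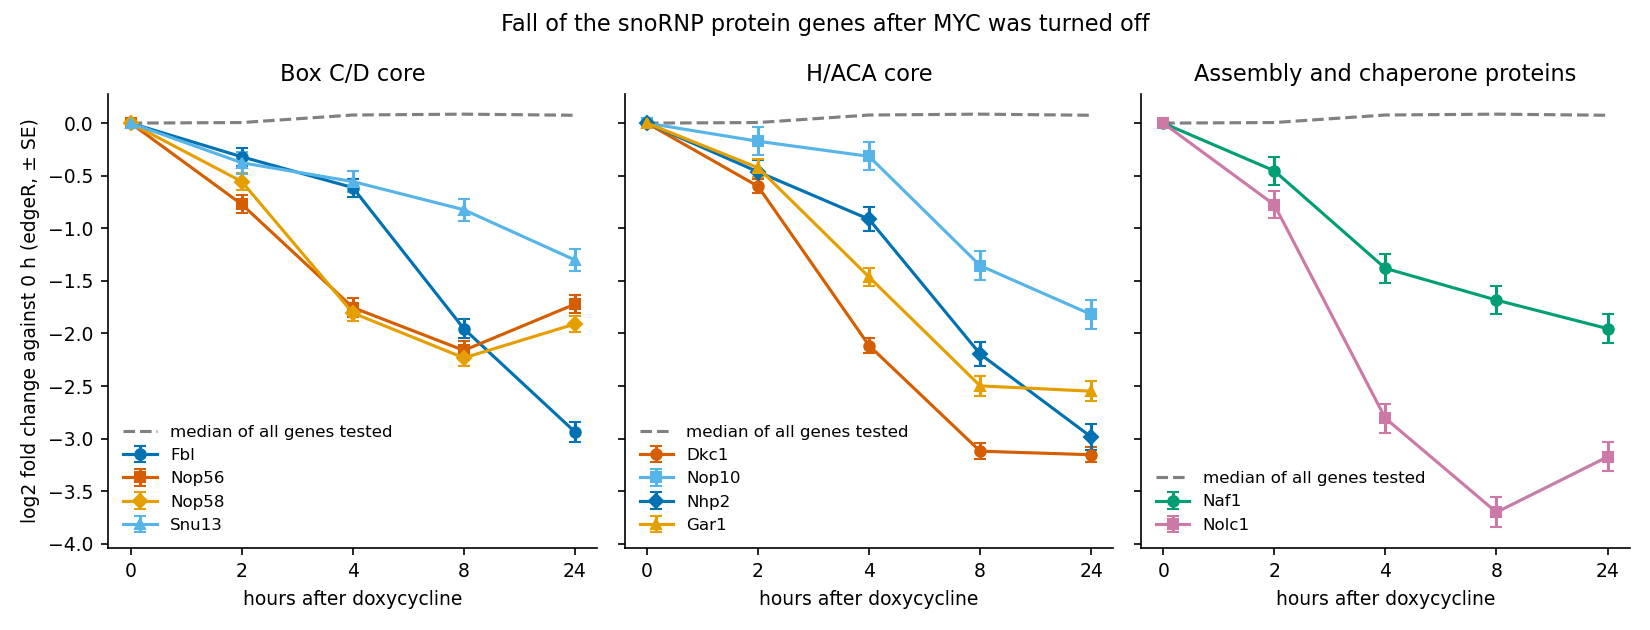
Log2 fold change against 0 h (edgeR, bars are SE) over hours after doxycycline (times evenly spaced) for the box C/D core, the H/ACA core and the assembly proteins, with the median of all 14485 genes tested as a dashed line. At 4 h the genes spread from -0.32 (Nop10) to -2.81 (Nolc1), while the dashed line stays within 0.09 of 0.

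The steps between neighbouring times place the falls. From 2 to 4 h, 7 of the 10 genes fell (13.0% of all genes tested), and Nolc1 (-2.03 in log2), Dkc1 (-1.52), Nop58 (-1.25) and Gar1 (-1.04) had the largest steps. Fbl (-0.29), Snu13 (-0.18) and Nop10 (-0.14) did not pass in that step. Nhp2 (-0.45) passed, but lost the call in 8 of 23 alternatives (adjusted p up to 0.0249, edgeR). From 4 to 8 h, 8 fell (6.97% of all genes), now led by Fbl (-1.34), Nhp2 (-1.28), Nop10 (-1.04) and Gar1 (-1.03), and Naf1 (-0.30) and Snu13 (-0.27) did not pass. Without replicate 3 at 24 h, 9 genes passed in each of these steps. Over all genes, leaving out each library gave 1436 to 2907 lower from 2 to 4 h (1882 with all). From 4 to 8 h it gave 609 to 2128 (1010 with all).

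From 8 to 24 h some genes of the set fell and others rose, as among all genes tested. Fbl (-0.98 ± 0.09 (SE)), Nhp2 (-0.79), Snu13 (-0.48) and Nop10 (-0.46) fell further, 4 of 10 against 17.3% of all genes. The call of Nop10 was lost in 16 of 23 alternatives (adjusted p up to 0.0654, edgeR), among them library totals and the replicate block, and without replicate 3 at 24 h its step was -0.27 and still passed. Nolc1 (0.53 ± 0.13 (SE)), Nop56 (0.44 ± 0.09 (SE)) and Nop58 (0.32 ± 0.08 (SE)) rose, 3 of 10 against 20.8% of all genes, with adjusted p of 0.00368, 0.000633 and 0.00293 (edgeR). Even so, these 3 genes stayed at 11.1% ± 1.94, 30.3% ± 3.97 and 26.6% ± 3.01 of their 0 h means at 24 h. Dkc1 (-0.03), Gar1 (-0.05) and Naf1 (-0.27) did not pass. Without replicate 3 at 24 h the rises were 0.37, 0.54 and 0.41, and Naf1 joined the falls (-0.44), which made 5 lower and 3 higher. Over all genes, leaving out each library gave 1856 to 2628 lower and 2172 to 3205 higher in this step. The calls of this step rest on the spread shared by all times. In a fit of the 8 h and 24 h libraries alone, 2 genes were lower and 0 higher (3 higher at an unadjusted p under 0.05, and 3 by DESeq2 over all libraries), without replicate 3 at 8 h 2 were lower, and without replicate 2 at 8 h 1 was higher.

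Because genes within 1 particle fell at different times, the ratio of each pair of subunits was compared across the 5 times within libraries, where the scaling of the library cancels. All 14 pairs compared differed with time (exact permutation test over libraries, 1401400 divisions, Benjamini-Hochberg adjusted over the 14 pairs, threshold 0.01). The pairs share genes and were chosen with earlier results known. How often other pairs of genes would pass was not tested, so the count cannot show a trait particular to these subunits. The smallest p this design allows is 7.14e-07. The log2 ratio of Fbl to Nop56 in counts was -1.13 ± 0.03 (SD, n = 3) at 0 h, 0.01 ± 0.16 at 4 h and -2.35 ± 0.05 at 24 h. It thus moved by 1.14 up to 4 h and by -1.22 up to 24 h, to opposite sides of its start (exact permutation adjusted p = 3.33e-06). Fbl to Nop58 took the same path, by 1.19 and -1.03 (exact permutation adjusted p = 9.99e-06).

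Nop56 and Nop58 kept the steadiest ratio of all pairs. Its largest move from 0 h was -0.22 at 2 h, it stood at 0.05 at 4 h and 0.07 at 8 h, and it ended at 0.19 (exact permutation adjusted p = 0.000213). In the H/ACA core, Dkc1 to Nop10 went from 0.36 ± 0.08 at 0 h to -1.45 ± 0.17 at 4 h and -0.95 ± 0.29 at 24 h, a drop of -1.80 and -1.30 (exact permutation adjusted p = 1.67e-05). Dkc1 to Nhp2 changed by -1.20 at 4 h and by -0.15 at 24 h. Its replicate 3 at 24 h lay above the 0 h libraries, and replicates 1 and 2 lay below them. Without replicate 3 its change at 24 h was -0.27, and that of Dkc1 to Nop10 was -1.47. Nop10 to Nhp2 climbed at every time and reached a change of 1.15 at 24 h.

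Naf1 to Gar1, the chaperone over the protein that replaces it, changed by 0.07, 0.82 and 0.58 at 4, 8 and 24 h (exact permutation adjusted p = 0.000885). Without replicate 3 at 24 h, its last change was 0.46. Nolc1 to Dkc1 changed by -0.70 at 4 h and -0.03 at 24 h (exact permutation adjusted p = 0.00398). At 24 h its replicate 3 lay above the 0 h libraries, and replicates 1 and 2 lay below them. Without replicate 3 its change at 24 h was -0.24. This last pair no longer passed without replicate 2 at 4 h (exact permutation adjusted p = 0.0115) or without replicate 3 at 4 h (0.0116). The other 13 passed in every alternative run.

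**Figure D3:**
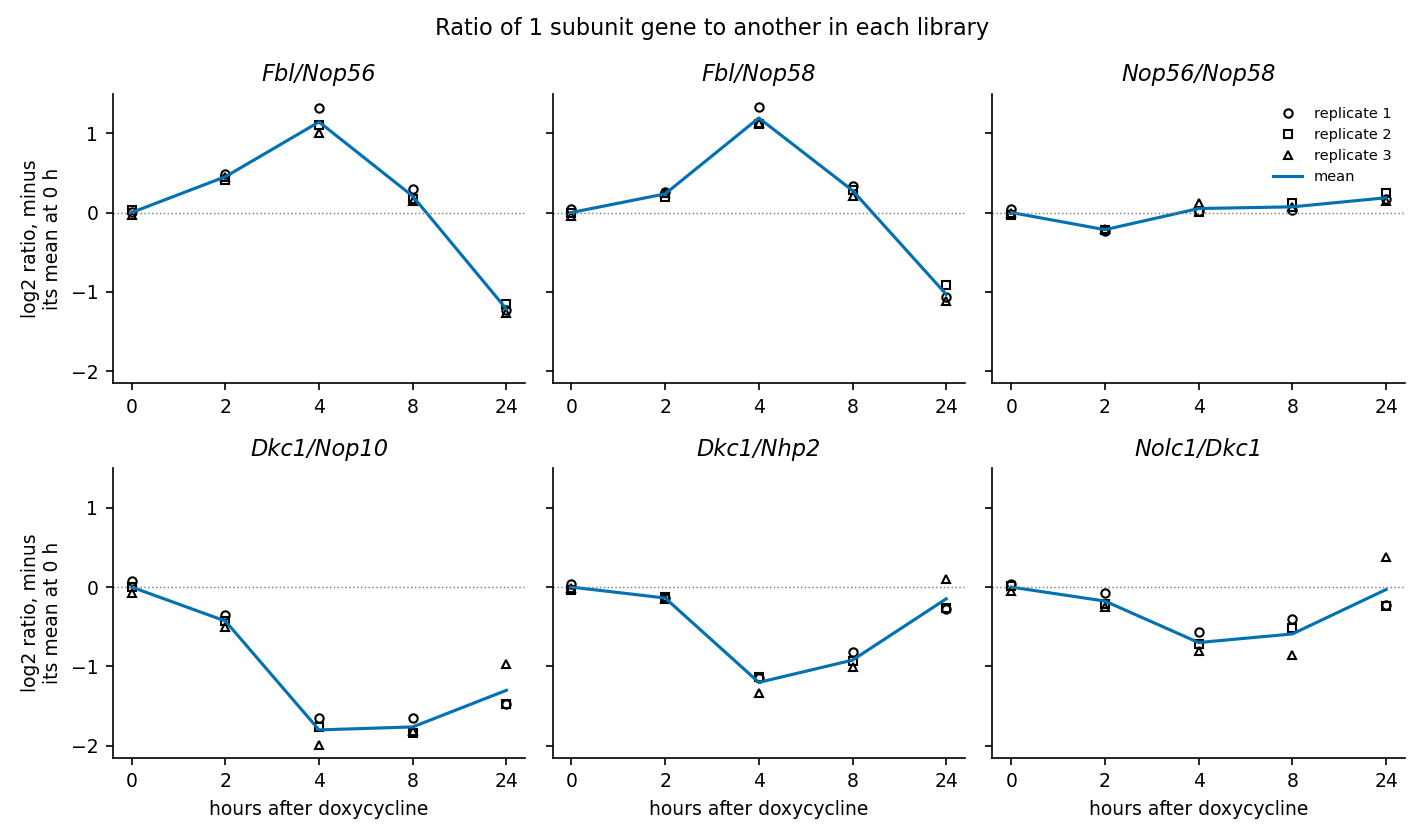
Log2 ratio of 1 subunit gene to another in each library (1 symbol per replicate), less its mean at 0 h, over hours after doxycycline (times evenly spaced), with a line through the means. Fbl to Nop56 peaks at 1.14 at 4 h and ends at -1.22, whereas the means of Nop56 to Nop58 stay within 0.22 of their start.

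The order of levels between genes depends on the length used. By the deposited TPM at 0 h, Nhp2 was highest (1053 ± 11.5, SD, n = 3), followed by Snu13 (787 ± 25.6), Nop10 (630.4 ± 31.4), Nop56 (398 ± 12.5) and Nolc1 (292 ± 11.1). Then came Dkc1 (217 ± 4.47), Fbl (176 ± 3.31), Nop58 (154 ± 3.33), Gar1 (129.8 ± 4.38) and Naf1 (99.4 ± 5.33). No neighbours in that order overlapped. The TPM divides by a merged gene length, 10758 bases for Nop58 and 4209 for Fbl, where the principal transcripts hold 1713 and 1197. On CPM per kb of principal transcript, a scale chosen after these lengths were seen, Nop58 (369 ± 10.8) stood second after Nhp2 (442 ± 10.8) and above Nop56 (331 ± 7.29) and Snu13 (308 ± 13.8), and Nop10 (240.5 ± 13.5) overlapped Fbl (237 ± 0.659).

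At 24 h, Snu13 was highest by TPM (404 ± 48.0). Nop10 (225 ± 41.7), Nhp2 (168 ± 23.4) and Nop56 (153 ± 8.15) followed, each overlapping the next, and Nop58 (52.1 ± 2.13) overlapped only Nolc1 below it. Nolc1, Naf1, Dkc1, Fbl and Gar1 lay between 28.4 ± 4.28 and 41.8 ± 11.1, and each overlapped its neighbour. On CPM per kb of principal transcript the mean of Snu13 (125 ± 23.9) was again the highest at 24 h, but its libraries overlapped those of Nop56 (100.4 ± 13.1). On that scale Gar1 and Naf1 were the lowest pair, at 11.4 ± 1.11 and 10.1 ± 2.04.

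**Figure D4:**
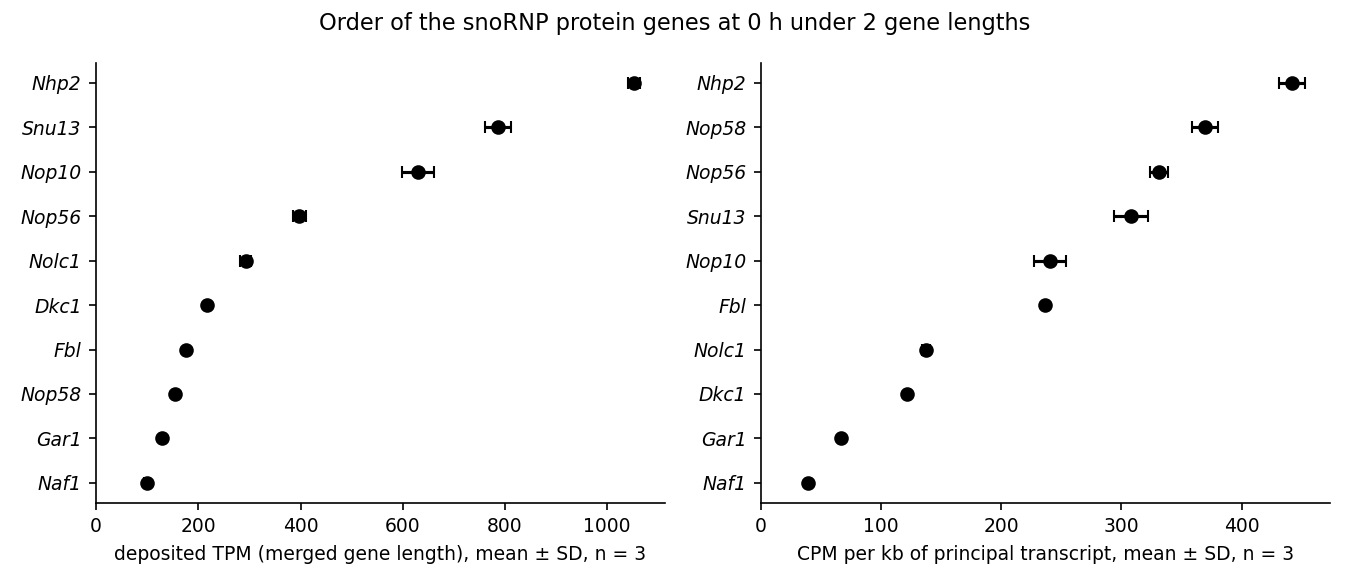
Mean level at 0 h (points, bars are SD, n = 3) by the deposited TPM on the left and by CPM per kb of principal transcript on the right, genes sorted within each panel. Nop58 moves from the eighth place to the second, and Nhp2 is highest in both.

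Some reads of these genes can be shared with other loci. Fbl had 3 near-identical copies (at least 90% identity over at least 300 bases). One is a transcript of Tulp4 with 690 bases at 99.6% identity to Fbl and another the processed pseudogene Gm5812 (96.9%). Tulp4 held 17.8% as many counts as Fbl over all libraries and Gm5812 3.84%. On library totals Gm5812 had 7.48 ± 0.583 CPM at 0 h and 4.04 ± 0.282 CPM at 24 h, and Tulp4 went from 25.9 ± 2.00 to 36.4 ± 8.96 CPM, beside Fbl at 265 ± 3.26 and 41.8 ± 5.98 CPM, so values of Fbl and its copies are uncertain where the counting split reads. The copies of Snu13 (9 pseudogenes) and Nop56 (5) held 0.552% and 0.307% as many counts as their genes, and those of the others at most 0.170%. The 3′ ends of Nop56, Dkc1 and Nhp2 overlap Idh3b, Mpp1 and Rmnd5b on the opposite strand, and without a stated strand setting reads there cannot be told apart.

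The protein-coding genes nearest in course to each core were found by the root mean square difference between their log2 fold changes and the core mean at the 4 times against 0 h, among genes of at least 10 CPM at 0 h. For the box C/D core (mean -0.51, -1.18, -1.79 and -1.97 at 2, 4, 8 and 24 h) they were Yars2, Rbm19, Mrps18b, Exosc7 and Tsr2, at 0.0895 to 0.0952. For the H/ACA core (mean -0.42, -1.20, -2.29 and -2.63) they were Ebna1bp2, Mrto4, Smyd2, Fkbp4 and Ppa1, at 0.138 to 0.154. The differences were taken over 4 comparisons that share the 0 h libraries, and the means hide the spread within each core.

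Of 43 further genes tested from 5 lists around the snoRNPs, 20, 30, 33 and 35 were lower at 2, 4, 8 and 24 h, and 0, 0, 1 and 1 were higher (edgeR, adjusted p under 0.01). The calls over all genes in both directions are given above. Without replicate 3 at 24 h, 37 were lower and 1 higher at 24 h. Over all genes, leaving out each library gave 3766 to 4504 lower at 24 h. At 2 h and 4 h, 0 and 1 were higher at an unadjusted p under 0.05, and 0 and 0 by DESeq2. Of the 12 assembly and transport factors, 10 fell at 4 h and 10 at 24 h, with a median log2 fold change of -0.80 and -1.0 (values of this and the next lists are on that scale, ± SE where given). Znhit6, part of the box C/D assembly machinery (-1.83 at 4 h and -2.45 at 24 h), and Shq1, the chaperone of dyskerin (-1.41 and -1.85), fell at both times. The helicases Ruvbl1 (-1.89) and Ruvbl2 (-1.86) were among the largest falls at 24 h, and the nucleolar protein Tcof1 (-1.52) and the assembly factor Nufip1 (-1.22) at 4 h. Pih1d1, a subunit of the R2TP chaperone complex, was higher at 8 h (0.41 ± 0.11, adjusted p = 0.00408, edgeR, lost in 8 of 23 alternatives), and at 24 h Pih1d1 (0.19) and Znhit3 (-0.42) did not pass. Without replicate 3 at 24 h, Pih1d1 was higher at 24 h too (0.33, adjusted p = 0.000383, edgeR).

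Of the 5 partners of single guide RNAs and of 3′ end trimming, Rrp9, the protein particular to the U3 snoRNP, fell at 4 h (-2.44) and was lower still at 24 h (-3.06). The 3′ end enzymes Tent4b (-0.39 ± 0.10) and Parn (-0.60 ± 0.08) fell at 24 h, and Tent4b also at 4 h (-0.83). Wrap53, which takes telomerase RNA to Cajal bodies, was higher at 24 h (0.29 ± 0.09, adjusted p = 0.00879, edgeR), a call that 18 of 23 alternatives lost. Tert, the telomerase reverse transcriptase, was at 3.17 ± 0.326 CPM at 0 h and did not pass (-0.40 ± 0.25 at 24 h), but it was lower at 24 h without replicate 3 (-0.77, adjusted p = 0.00339, edgeR). Of the relatives of core proteins, Rpp38 (-1.89) and Prpf31 (-1.34) fell at 24 h, as they had at 4 h (-1.74 and -0.58). Secisbp2 fell at 8 h (-0.66 ± 0.13, adjusted p = 0.00038, edgeR) and did not pass at 2, 4 or 24 h (-0.17 at 24 h, and -0.37 without replicate 3 at 24 h, which passed). Fbll1, the Fbl relative, was not tested because its counts were too low.

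Stand-alone pseudouridine synthases and other genes listed for rRNA modification mostly moved in the same direction. Of 12 stand-alone pseudouridine synthases, 9 fell at 4 h and 10 at 24 h (median -0.92 and -1.32), with Pus7 at -3.63 ± 0.08, Pus7l at -3.42 ± 0.10, Pus1 at -2.66 ± 0.11 and Rpusd2 at -2.06 ± 0.10 at 24 h. At 4 h these 4 had been the largest falls too (-2.74, -2.85, -2.02 and -1.47). Rpusd1 (-0.09) and Rpusd3 (-0.05) did not pass at 24 h and changed sign with the scaling. Of 11 genes listed for rRNA modification, adaptors included, 7 fell at 4 h and 10 at 24 h (median -0.68 and -0.80). The largest falls at 24 h were those of the rRNA acetyltransferase Nat10 (-3.78 ± 0.10), the cytosine methyltransferase Nop2 (-3.40 ± 0.08), the Nat10 adaptor Thumpd1 (-1.85 ± 0.06) and the adenosine dimethyltransferase Dimt1 (-1.5 ± 0.12), and at 4 h Nsun5 (-1.44) was among them. Emg1 (-0.19), the pseudouridine methyltransferase, did not pass.

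**Figure D5:**
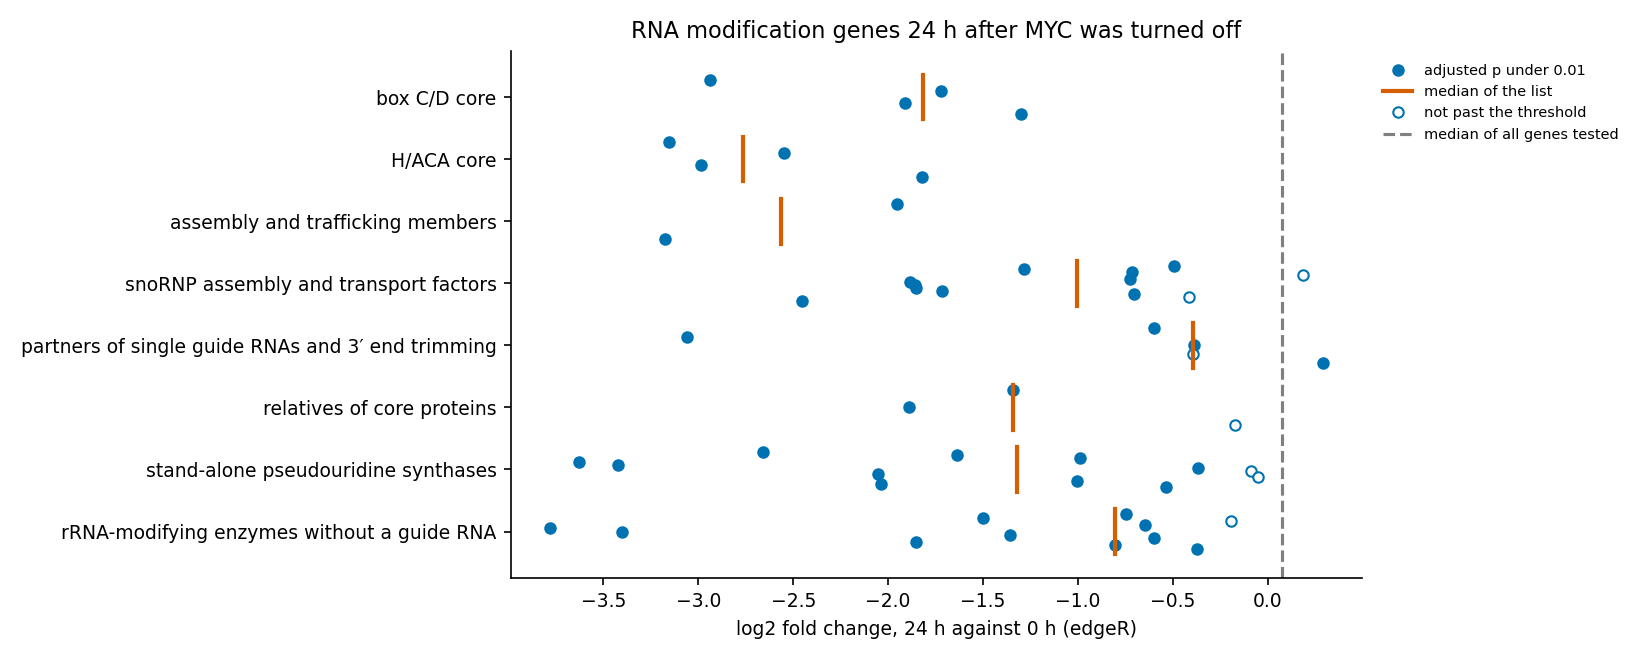
Log2 fold change at 24 h against 0 h (edgeR) of each gene tested, by list, with filled points for an adjusted p under 0.01, open points otherwise, a bar for the list's median and a dashed line for the median of all genes tested (0.07). The H/ACA core has the lowest median (-2.77) and the partners of single guide RNAs the highest (-0.40).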

How the data were processed

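PolyA RNA of mouse T-ALL cells was sequenced in 15 libraries, 3 at each of 0, 2, 4, 8 and 24 h, grouped by the time in their labels. For each library the authors deposited raw counts per gene together with FPKM and TPM, and the counts entered all tests. Per the submitters' notes, the tools were cutadapt 1.16, STAR 2.5.4b and featureCounts, and the build was mm10. The strand setting of the counting was not given in the sources used here, nor was the annotation release. Of 53379 mouse gene IDs, 53274 matched GENCODE M21 (GRCm38) without the version number, and names, positions and lengths come from it.

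Genes kept by filterByExpr (14485) were scaled by TMM and fitted over all 15 libraries by the quasi-likelihood test of edgeR 4.0.16 in R 4.3.3, with 1 mean per time and no replicate block, at a Benjamini-Hochberg adjusted p under 0.01 over all genes tested. SE is the log2 fold change divided by the square root of F. Subunit ratios used log2 counts with a pseudocount of 0.5 and an exact permutation test over libraries. The fit and the permutation test were tested on simulated data. TPM served for levels per length, and FPKM as its alternative. Near-identical copies were sought with blastn 2.17.0. Promoter windows are from RefSeq (GRCm38.p6). The 10 genes, the other lists and the tests were chosen with earlier results of these data known. Beside the 10 genes and the transgene, the text names up to 4 called genes per list with the largest change at 4 h and at 24 h, any gene where 5 or fewer are counted, the 5 nearest in course to each core, and genes or snoRNAs that overlap the 10 or copy them. Of 44 genes in the other lists, 43 were tested; 1 further symbol, Nopchap1, had no match.

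The depth is the total count per library (median 26672358), and 3 counts, the most that a count of 0 allows, are 0.111 to 0.116 CPM, for counting error only. Libraries with the same replicate number showed little shared deviation. Their median correlation was 0.03 over 30 pairs (lowest -0.31, highest 0.21), against -0.01 over 60 pairs with other numbers. The numbers were therefore not taken to pair the libraries. Alternatives were RLE, upper-quartile and library-total scaling, no low-count filter, DESeq2 1.42.0, a minimum of 10 counts in every library, only the times compared, thresholds of 0.05 on the adjusted p and of 1.5 on the log2 fold change, the replicate block, leaving out each library, and a pseudocount of 2 for the ratios.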

Additional observations from a re-analysis of the deposited data

How the results depend on the processing

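Every comparison with 0 h kept the direction of all 10 snoRNP protein genes in every alternative. Of 1610 alternative fold changes of these genes, 1515 kept direction and call, 57 lost the call, 33 gained it and 5 changed sign, all 5 in uncalled values of 24 h against 8 h. Dkc1 there was 0.133 on library totals and -0.068 to 0.028 with each library left out (above 0 without replicate 3 at 24 h). Gar1 was 0.117 on library totals and -0.111 to 0.065 with each left out (above 0 without replicate 1 at 8 h or replicate 2 at 24 h). In fits of only the times compared, 10 genes were lower at 2 h against 0 h, and from 8 to 24 h 2 were lower and 0 higher. On library totals 2 were lower in that step. With a required log2 fold change of over 1.5, 0 were lower at 2 h and 4 at 4 h against 0 h, 2 from 2 to 4 h, 0 from 4 to 8 h, and 0 lower and 0 higher from 8 to 24 h. Leaving out each library gave 4 to 9 lower at 2 h, 9 to 10 at 4 h, and 10 at 8 h and 24 h against 0 h. It gave 6 to 9 from 2 to 4 h, 6 to 9 from 4 to 8 h, and 2 to 5 lower and 1 to 3 higher from 8 to 24 h. The time course as a whole called 10 in every alternative run, and the pairs of subunits 13 to 14 of 14.

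With the replicate number as a block, 5 of the 10 genes were lower at 2 h and 9 at 4 h against 0 h, all 14 pairs still passed, Nhp2 lost its calls at 2 h against 0 h and from 2 to 4 h (adjusted p = 0.0149 and 0.0136, edgeR), Nop10 lost that from 8 to 24 h (0.0181), and Wrap53 was no longer higher at 24 h (0 genes). Of the 15 libraries, 9 had their highest mean correlation with the libraries of their own number, a hint from the data and not from the design. The block called 1892 of all genes at 2 h against 0 h in place of 2200 and 8241 at 24 h in place of 8519.

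Of the other 43 genes, 1 was higher at 4 h on library totals, with upper-quartile factors, with no low-count filter, in a fit of only the times compared and at an adjusted p under 0.05. At 24 h 2 were higher on library totals, and 0 with RLE size factors, no low-count filter, DESeq2 or only the times compared. Leaving out each library gave 0 to 1 higher at 4, 8 and 24 h, and 14 to 26 lower at 2 h. The signs of uncalled genes at 24 h that changed were those of Secisbp2 (0.11), Rpusd1 (0.19), Rpusd3 (0.22) and Emg1 (0.079) on library totals, Rpusd1 (0.053) and Rpusd3 (0.091) with upper-quartile factors, and Rpusd3 with each library left out (-0.109 to 0.0058, above 0 without replicate 2 at 0 h or replicate 3 at 24 h). By length of the principal transcript, the positions at 0 h were 2 for Nop58, 3 for Nop56, 4 for Snu13, 5 for Nop10, 6 for Fbl, 7 for Nolc1 and 8 for Dkc1. FPKM kept the TPM order. Of 320 alternative levels relative to 0 h, 41 moved by over 1 SD, 23 of them on library totals.

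Over all genes, library totals moved the median log2 fold change by 0.27 at 24 h and by 0.11 at 8 h against 0 h and by 0.17 from 8 to 24 h. The lower and higher calls became 968 and 1173 at 2 h (1244 and 956 on TMM), 2855 and 6361 at 24 h (4076 and 4443), 704 and 1100 from 4 to 8 h (1010 and 830) and 1596 and 4636 from 8 to 24 h (2506 and 3014). Fits of only the times compared called 2794 lower and 2432 higher at 2 h, 2253 higher from 2 to 4 h, and 1151 lower and 782 higher from 8 to 24 h. Leaving out each library gave 774 to 2167 lower and 603 to 1744 higher at 2 h, 1698 to 3882 higher at 4 h, 1436 to 2907 lower and 487 to 2414 higher from 2 to 4 h, and 609 to 2128 lower and 482 to 1696 higher from 4 to 8 h. DESeq2 called 1893 lower at 2 h. The cause of these moves was not tested.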
